A study of Mus musculus with 9 samples.

Results

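The 9 genes described here make, move and spend the heart's short-term energy reserve and its oxygen store: the creatine kinase genes Ckm, Ckmt2 and Ckb, the creatine transporter gene Slc6a8, the creatine synthesis genes Gatm and Gamt, the adenylate kinase genes Ak1 and Ak4, and the myoglobin gene Mb. They were chosen by symbol, and all 9 were found among the 16710 rows of the expression table. All 9 also passed the filter on low values, so each was tested. RNA came from the left ventricle of ICR/CD1 mice taken at postnatal day 14. The operation, transverse aortic constriction (TAC), ties the aortic arch to a narrower bore and so raises the pressure that the left ventricle works against. The groups were 3 libraries from mice operated on at day 1 after birth (day-1 TAC), 3 from mice operated on at day 7 (day-7 TAC), and a sham-operated set of 3 of the same strain and age at harvest, with no day of sham surgery in the labels. The study's design text describes day 1 as lying within, and day 7 as lying after, the stage at which the mouse heart can regenerate. Since every heart was taken at day 14, age at surgery and time under load cannot be told apart. Whether each sample is an animal of its own, a littermate of another or a pool is not stated, so the p-values refer to the spread among these samples, which may be technical.

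Creatine kinases pass a phosphate group between ATP and creatine, in either direction. In the cardiomyocyte the mitochondrial enzyme charges creatine close to where ATP leaves the mitochondrion, and the cytosolic enzymes use the phosphocreatine to restore ATP at the myofibrils and ion pumps. Heart muscle makes little creatine of its own and takes it up from the blood. Adenylate kinases turn ADP into ATP and AMP and so pass on phosphate by a parallel route. Myoglobin binds oxygen inside muscle cells and eases its passage to the mitochondria.

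Levels are the deposited log2 values, on which a difference of 1 is a 2.0-fold difference. They are given for replicates 1, 2 and 3 of each group, with the replicates in no order of time or dose. A gene was called when limma's Benjamini-Hochberg adjusted p, taken over all 13712 genes tested, was under 0.05. The libraries held 18538900 to 26529531 reads recovered from the deposited values, and the 9 genes rested on between 46 reads (the lowest for Gamt) and 230566 reads (the highest for Mb) in a library. The library labelled day-1 TAC replicate 3 stood apart in its sex-linked genes, with 10532 reads of Xist against 7 to 40 in the other 8 libraries, and 18 reads of Ddx3y against 3312 to 4706. That is a female pattern, where the other 8 libraries had a male one, so only day-1 TAC held both. The labels give no sex. The 9 markers listed for ventricular cardiomyocytes had a summed linear level of 93303 to 119138 in day-1 TAC, 107783 to 117038 in day-7 TAC and 125028 to 133238 in sham. This sum shows heart muscle and does not by itself tell ventricle from atrium. It leans on its most abundant marker, Myh6, with log2 levels of 14.94 to 15.88, which was called in no comparison. In tissue RNA, fewer cells of a type and less RNA per cell cannot be told apart.

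Against sham, 4 of the 9 genes rose with day-1 TAC and none fell: Ckmt2, Ckb, Slc6a8 and Gatm. In that comparison 34.8% of all genes tested were called, 14.3% higher and 20.5% lower. With reads scaled by the library total alone in place of the deposited scale, 7 of the 9 were called higher, with Ckm, Gamt and Mb added. Under that scaling 4724 of the 13712 genes tested were called in either direction, and the median log2 fold change of all genes was 0.06. With day-7 TAC against sham, Slc6a8 rose while Ckmt2 and Ak4 fell, where 28.9% of all genes were called, 13.8% higher and 15.1% lower. Between the TAC groups, Ckmt2, Ckb, Gatm, Ak4 and Mb were higher in day-1 than in day-7 TAC and no gene of the 9 was lower, where 16.7% of all genes were called, 6.42% higher and 10.3% lower. The median log2 fold change of the 9 genes relative to sham was 0.38 in day-1 TAC and -0.05 in day-7 TAC, and it was 0.62 between the TAC groups. Over all genes tested it was -0.04 in day-1 TAC and -0.01 in day-7 TAC relative to sham, and -0.03 between the TAC groups. Both TAC groups were set against the same sham libraries. Limma's F test among the 3 groups called 6 of the 9 (Ckmt2, Ckb, Slc6a8, Gatm, Ak4 and Mb), where it called 44.4% of all genes.

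**Figure D1:**
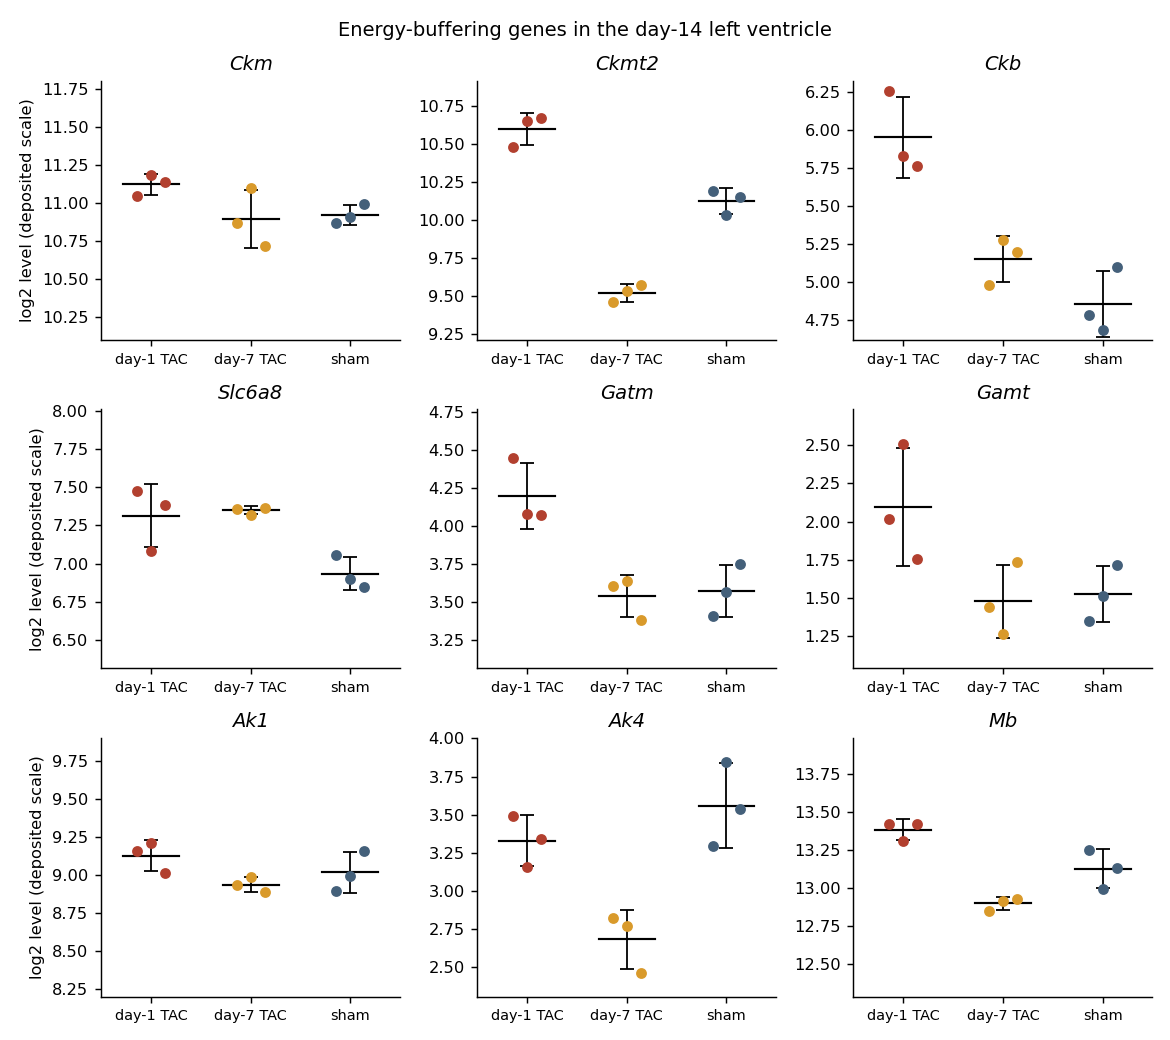
Level of each of the 9 genes in the 9 libraries, on the deposited log2 scale (vertical axis, with the same span of log2 units in every panel). Points are libraries, the horizontal line is the group mean and the bars are the SD (n = 3). Ckmt2 forms 3 separate bands, with day-1 TAC highest (10.48 to 10.67) and day-7 TAC lowest (9.46 to 9.57), while Slc6a8 is higher in both TAC groups than in sham.

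The promoters of the 4 genes that show the contrast most plainly are given here: Ckmt2, which moved in opposite directions in the TAC groups, Ckb and Gatm, which rose with day-1 TAC, and Ckm, the abundant muscle isoform that passed no test. Each is the RefSeq promoter on GRCm38.p6, 300 bases long and beginning 250 bases before the gene's RefSeq start, written 5′ to 3′ on the strand of the gene. The RefSeq starts of Ckm (base 19411094) and Gatm (base 122611277) lie inside the GENCODE gene spans given below. Those of Ckmt2 and Ckb lie at the ends of their spans. Capitals mark matches to 6 motifs searched on both strands: the E-box CANNTG, the TATA box TATAAA, the estrogen-related receptor (ERR) element AAGGTCA, the hypoxia core ACGTG, and the MEF2 and CArG sites of muscle genes.
Ckmt2, minus strand, chr13:91876836-91877135: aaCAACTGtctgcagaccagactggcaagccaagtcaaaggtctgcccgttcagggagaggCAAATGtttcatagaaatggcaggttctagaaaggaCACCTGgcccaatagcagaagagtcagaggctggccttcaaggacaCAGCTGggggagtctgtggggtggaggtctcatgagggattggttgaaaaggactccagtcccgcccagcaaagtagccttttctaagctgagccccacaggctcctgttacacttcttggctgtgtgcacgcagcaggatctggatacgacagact
Ckb, minus strand, chr12:111672289-111672588: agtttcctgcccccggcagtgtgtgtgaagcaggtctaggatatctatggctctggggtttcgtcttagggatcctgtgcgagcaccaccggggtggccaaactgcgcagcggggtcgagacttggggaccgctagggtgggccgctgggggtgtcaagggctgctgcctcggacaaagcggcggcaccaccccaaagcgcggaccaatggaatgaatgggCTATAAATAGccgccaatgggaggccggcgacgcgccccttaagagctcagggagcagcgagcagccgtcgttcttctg
Gatm, minus strand, chr2:122611228-122611527: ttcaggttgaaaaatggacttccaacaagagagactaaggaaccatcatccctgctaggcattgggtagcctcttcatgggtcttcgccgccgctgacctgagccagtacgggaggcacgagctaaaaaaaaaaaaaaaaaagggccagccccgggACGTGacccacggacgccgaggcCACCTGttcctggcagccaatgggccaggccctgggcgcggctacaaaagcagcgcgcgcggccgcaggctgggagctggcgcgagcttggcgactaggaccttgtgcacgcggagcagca
Ckm, plus strand, chr7:19410844-19411143: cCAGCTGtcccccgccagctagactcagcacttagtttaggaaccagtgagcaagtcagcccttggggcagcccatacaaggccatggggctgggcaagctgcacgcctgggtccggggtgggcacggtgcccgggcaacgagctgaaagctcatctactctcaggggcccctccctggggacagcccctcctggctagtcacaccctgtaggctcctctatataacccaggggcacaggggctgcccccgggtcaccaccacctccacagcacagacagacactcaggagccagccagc

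The Ckmt2 promoter held 4 E-boxes, the sites bound by basic helix-loop-helix factors, beginning 248, 189, 153 and 107 bases before the start. An E-box is common in such a window, and 72.3% of 32851 mouse promoters of this length held at least 1. The Ckb promoter held a TATA box 28 bases before the start, which lay inside a match to the MEF2 site that began 29 bases before it; 13.6% of promoters held a TATA box and 3.19% a MEF2 match. The Gatm promoter held a hypoxia core 94 bases before the start (in 19.6% of promoters) and an E-box 71 bases before it. The Ckm promoter held a single E-box, 249 bases before the start, and no exact TATAAA. Variants of the TATA box were not searched, so near matches such as the letters tatataa in the Ckm window are not marked. None of the 4 windows held the ERR element (in 4.72% of promoters) or a CArG match (1.63%). Of the 9 genes, 8 had a promoter in the RefSeq table used, and Slc6a8 had none there. A match describes the letters and does not show binding.

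Ckmt2, which encodes the sarcomeric mitochondrial creatine kinase, gave the clearest contrast of the 9 genes. It lies on chromosome 13 from 91853387 to 91876885 on the minus strand (GRCm38, mm10). Its level was 10.48, 10.65 and 10.67 in day-1 TAC, 9.46, 9.53 and 9.57 in day-7 TAC and 10.19, 10.03 and 10.15 in sham. The 3 groups did not overlap, with every day-1 TAC library above and every day-7 TAC library below every sham library. Ckmt2 rose with day-1 TAC against sham by 0.47 (SE 0.08, adjusted p = 0.00206 by limma), or 1.39-fold. With day-7 TAC it fell by 0.61 on the log2 scale (SE 0.08, adjusted p = 0.00075 by limma). Between the TAC groups it was 2.11-fold higher in the day-1 group (log2 fold change 1.08, SE 0.08, adjusted p = 0.000583 by limma) and had the smallest p of all 13712 genes tested. Without day-1 TAC replicate 3 it stood at 0.44 against sham and 1.05 against day-7 TAC, called in both. Of the 9 ventricular cardiomyocyte markers, Actc1 rose (0.89) and Ryr2 (-0.48) and Pln (-0.83) fell with day-1 TAC, and Actc1 rose (0.75) and Tnnt2 (-0.50) and Ryr2 (-0.47) fell with day-7 TAC. The part of the number of cardiomyocytes in the level of Ckmt2 was not tested.

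Ckm, the cytosolic muscle isoform that sits at the sarcomere, was the most abundant creatine kinase mRNA in reads and did not pass the test in any comparison. The gene lies on chromosome 7 from 19404776 to 19422841 on the plus strand. Its level was 11.05, 11.18 and 11.14 in day-1 TAC, 10.87, 11.10 and 10.72 in day-7 TAC and 10.87, 10.91 and 10.99 in sham. The day-1 TAC libraries lay above the sham libraries by a narrow gap, and the day-7 TAC libraries overlapped both of the other groups. Relative to sham the log2 fold change of Ckm was 0.20 in day-1 TAC (95% interval -0.03 to 0.44) and -0.02 in day-7 TAC (-0.26 to 0.21), and it was 0.23 between the TAC groups (-0.01 to 0.46), with adjusted p = 0.161, 0.883 and 0.161 by limma. Under quantile normalization Ckm was called in day-1 TAC against sham (0.33, adjusted p = 0.0497 by limma).

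Ckb encodes the brain-type cytosolic isoform, which the heart makes before birth and which the muscle isoform largely replaces. It lies on chromosome 12 from 111669361 to 111672338 on the minus strand. Its level was 6.26, 5.83 and 5.77 in day-1 TAC, 4.99, 5.28 and 5.20 in day-7 TAC and 4.79, 4.69 and 5.10 in sham. The day-1 TAC libraries lay above all others, replicate 1 farthest, while the day-7 TAC and sham libraries overlapped. Ckb rose 2.13-fold with day-1 TAC against sham (log2 fold change 1.09, SE 0.15, adjusted p = 0.000604 by limma), the largest fold change among the 9 genes in that comparison. Without day-1 TAC replicate 1 the log2 fold change was 0.94 and the call held, and without replicate 3 it was 1.18. With day-7 TAC it stood at 0.30 (SE 0.15, adjusted p = 0.158 by limma), and it was 1.74-fold higher in day-1 than in day-7 TAC (log2 fold change 0.80, SE 0.15, adjusted p = 0.0072 by limma).

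Because the isoforms stand for different sites of the phosphate shuttle, each was also set against Ckm within a library. The log2 level of Ckmt2 minus that of Ckm was -0.52 ± 0.05 in day-1 TAC, -1.38 ± 0.21 in day-7 TAC and -0.80 ± 0.11 in sham (SD, n = 3 each). The difference of means from sham was 0.27 in day-1 TAC and -0.58 in day-7 TAC, and it was 0.85 between the TAC groups, each with p = 0.1 in a two-sided exact permutation test and 0.1 adjusted over the 3 comparisons. That is the smallest p that 3 libraries against 3 can give, so none of these can reach 0.05. In every day-7 TAC library Ckmt2 was lower relative to Ckm than in any other library. The log2 level of Ckb minus that of Ckm was -5.17 ± 0.33 in day-1 TAC, -5.74 ± 0.20 in day-7 TAC and -6.06 ± 0.17 in sham (SD, n = 3 each). Its difference from sham was 0.89 in day-1 TAC (exact permutation p = 0.1, adjusted 0.15) and 0.32 in day-7 TAC (exact permutation p = 0.2, adjusted 0.2), and it was 0.57 between the TAC groups (exact permutation p = 0.1, adjusted 0.15).

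Divided by transcript length, the creatine kinase mRNAs were mainly Ckm and Ckmt2. Ckmt2 made up 39.2 ± 0.922% of their summed level per length in day-1 TAC, 26.6 ± 2.83% in day-7 TAC and 35.1 ± 1.70% in sham (SD, n = 3 each). Ckm made up 59.2 ± 0.597% in day-1 TAC, 72.1 ± 2.94% in day-7 TAC and 64.0 ± 1.69% in sham. Ckb made up 1.61 ± 0.400% in day-1 TAC, 1.30 ± 0.135% in day-7 TAC and 0.925 ± 0.110% in sham. Which of the leading isoforms was more abundant depends on the length given to Ckm. With 1415 bases, the part of its principal transcript within the RefSeq gene, Ckm led in every group, and with the whole GENCODE transcript of 2742 bases Ckmt2 led in day-1 TAC at 54.9% and in sham at 50.8%, but not in day-7 TAC at 40.7%. The order of the groups in the share of Ckmt2 was the same with either length. Ckmt1, the ubiquitous mitochondrial isoform, had 4 to 19 reads in a library and was too low to be tested.

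**Figure D2:**
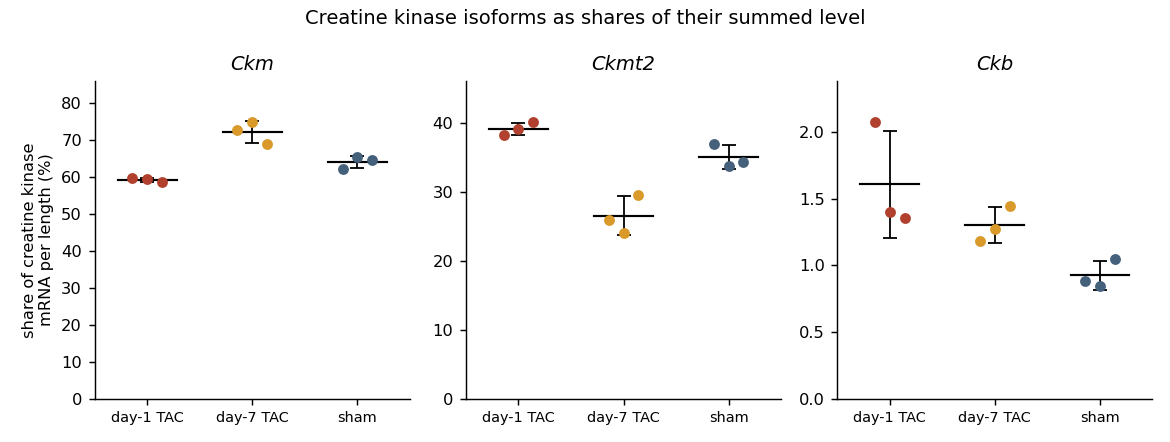
Share of each creatine kinase isoform in the summed creatine kinase level per length (vertical axis, %, with its own range in each panel) in day-1 TAC, day-7 TAC and sham. Points are libraries, lines are means and bars are the SD (n = 3). The Ckmt2 share is lowest in the 3 day-7 TAC libraries (mean 26.6%), where the Ckm share is highest (72.1%).

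Slc6a8 encodes the creatine transporter of the plasma membrane and was the only one of the 9 genes called higher than sham in both TAC groups. It lies on the X chromosome from 73673150 to 73682502 on the plus strand. Its level was 7.48, 7.08 and 7.38 in day-1 TAC, 7.36, 7.32 and 7.37 in day-7 TAC and 7.06, 6.90 and 6.85 in sham. Both TAC groups lay above sham, with day-1 TAC replicate 2 close to the highest sham library. Slc6a8 rose 1.30-fold in day-1 TAC (log2 fold change 0.38, SE 0.10, adjusted p = 0.0144 by limma) and 1.33-fold in day-7 TAC (0.41, SE 0.10, adjusted p = 0.0115 by limma). Between the TAC groups the difference was -0.03 (95% interval -0.25 to 0.19, adjusted p = 0.842 by limma). Without day-1 TAC replicate 3, the library with high Xist, the log2 fold change of this X-linked gene with day-1 TAC was 0.35 (adjusted p = 0.0464 by limma).

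Gatm encodes the amidinotransferase that joins arginine and glycine in the first step of creatine synthesis, a step best known in the kidney. It lies on chromosome 2 from 122594467 to 122611303 on the minus strand. Its level was 4.45, 4.08 and 4.07 in day-1 TAC, 3.61, 3.64 and 3.38 in day-7 TAC and 3.41, 3.57 and 3.75 in sham, from 213 to 458 reads. The day-1 TAC libraries lay above all others, and the day-7 TAC and sham libraries overlapped. Gatm rose 1.54-fold with day-1 TAC against sham (log2 fold change 0.62, SE 0.14, adjusted p = 0.00655 by limma). It was 1.57-fold higher in day-1 than in day-7 TAC (0.66, SE 0.14, adjusted p = 0.0115 by limma), and stood at -0.03 with day-7 TAC against sham (SE 0.14, adjusted p = 0.879 by limma). As with Ckb, day-1 TAC replicate 1 was the highest library; without it the log2 fold change of Gatm against sham was 0.50 and the call held, and without replicate 3 it was 0.69.

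Gamt encodes the methyltransferase of the second step and lies on chromosome 10 from 80258151 to 80261012 on the minus strand. Its level was 2.02, 2.51 and 1.75 in day-1 TAC, 1.44, 1.26 and 1.73 in day-7 TAC and 1.35, 1.51 and 1.71 in sham, from 46 to 116 reads. The lowest day-1 TAC library was just above the highest library of each other group. Relative to sham Gamt stood at 0.57 in day-1 TAC (SE 0.22, adjusted p = 0.0718 by limma) and -0.05 in day-7 TAC (SE 0.22, adjusted p = 0.895 by limma), and at 0.62 between the TAC groups (SE 0.22, adjusted p = 0.084 by limma). Without day-1 TAC replicate 3 it was called against sham, at 0.74 (adjusted p = 0.0392 by limma). In 8 of the 9 fits with a library left out in turn it was not called (adjusted p up to 0.238 by limma). The lowest value, 0.36, came without day-1 TAC replicate 2, the highest library.

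Ckb and Gatm are also expressed outside muscle cells, and markers of other cell types moved in the same libraries. The summed linear level of the 5 fibroblast markers was 2650 to 3483 in day-1 TAC, 2147 to 2526 in day-7 TAC and 1900 to 2484 in sham. With day-1 TAC against sham 3 of them rose and 1 fell, where 14.3% of all genes tested rose and 20.5% fell. The sum of the 4 macrophage markers was 47.1 to 68.2 in day-1 TAC, 36.3 to 44.0 in day-7 TAC and 41.2 to 51.9 in sham. Of these 4, 3 were higher in day-1 than in day-7 TAC, where 6.42% of all genes tested were higher. The sum of the 5 smooth muscle markers overlapped between all groups, though its members went different ways. Against sham, Acta2 rose with day-7 TAC (1.08), Tagln rose with day-1 TAC (0.51), and Smtn fell in both (-0.57 with day-1 TAC and -0.68 with day-7 TAC). Myh11 and Cnn1 passed no test. For the 5 endothelial markers the sum was 1184 to 1270 in day-1 TAC, 1230 to 1277 in day-7 TAC and 1298 to 1355 in sham. Against sham, Cdh5 (-0.28 with day-1 TAC and -0.33 with day-7 TAC) and Tek (-0.35 with day-1 TAC and -0.34 with day-7 TAC) fell in both. Kdr rose with day-7 TAC (0.37), and Pecam1 and Emcn passed no test. The part of these cells in the levels of Ckb and Gatm was not tested.

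**Figure D3:**
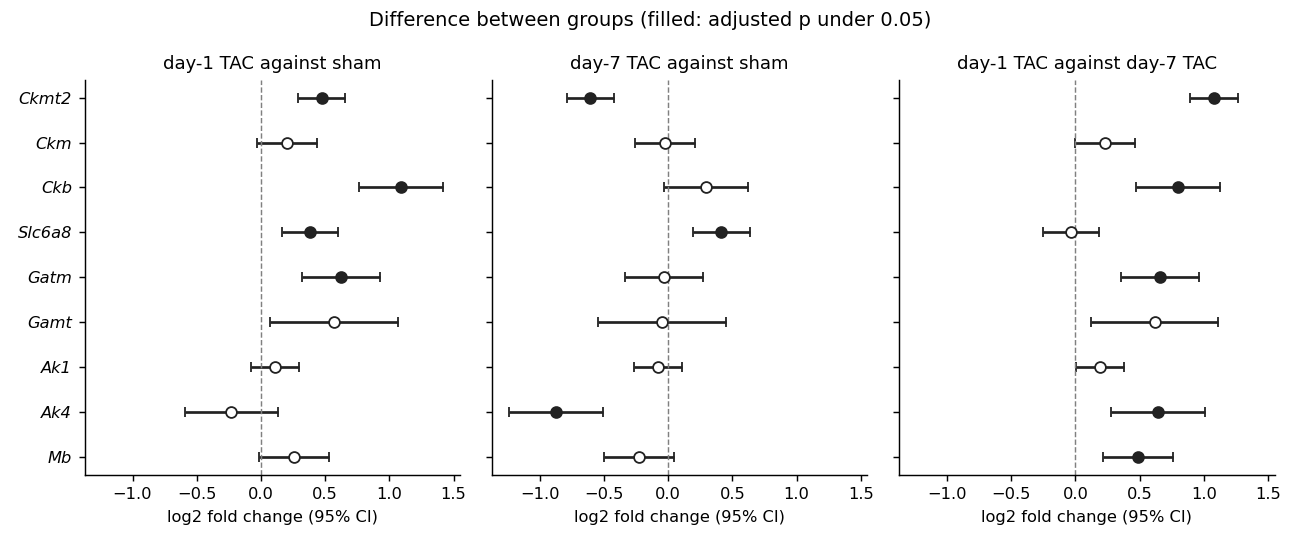
Log2 fold change of the 9 genes (rows) in the 3 comparisons (panels), with 95% confidence intervals from limma. Filled points passed an adjusted p of 0.05 over all genes tested. Ckmt2 lies to the right of 0 for day-1 TAC (0.47) and to the left for day-7 TAC (-0.61), and Slc6a8 lies to the right for both (0.38 for day-1 TAC, 0.41 for day-7 TAC).

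The adenylate kinase genes differed in where they moved. Ak4 encodes a mitochondrial matrix member of the family and lies on chromosome 4 from 101419277 to 101466995 on the plus strand. Its level was 3.49, 3.15 and 3.34 in day-1 TAC, 2.82, 2.77 and 2.46 in day-7 TAC and 3.29, 3.85 and 3.54 in sham, from 116 to 368 reads. All day-7 TAC libraries lay below all others, while day-1 TAC and sham overlapped. Ak4 fell by 45.5% with day-7 TAC against sham (log2 fold change -0.87, SE 0.16, adjusted p = 0.00378 by limma). With day-1 TAC it stood at -0.23 (SE 0.16, adjusted p = 0.304 by limma). It was 1.56-fold higher in day-1 than in day-7 TAC (log2 fold change 0.64, SE 0.16, adjusted p = 0.0254 by limma). That call between the TAC groups was lost without day-1 TAC replicate 1 (0.56, adjusted p = 0.0716), day-1 TAC replicate 3 (0.64, adjusted p = 0.0619), day-7 TAC replicate 2 (0.69, adjusted p = 0.0534) or day-7 TAC replicate 3 (0.53, adjusted p = 0.0876 by limma).

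Ak1, the abundant cytosolic adenylate kinase of muscle, passed no test. It lies on chromosome 2 from 32621758 to 32635058 on the plus strand. Its level was 9.16, 9.21 and 9.01 in day-1 TAC, 8.94, 8.99 and 8.89 in day-7 TAC and 8.89, 8.997 and 9.16 in sham. The sham libraries spanned nearly the range of both TAC groups. Relative to sham its log2 fold change was 0.11 in day-1 TAC (95% interval -0.08 to 0.30) and -0.08 in day-7 TAC (-0.27 to 0.11), and it was 0.19 between the TAC groups (0.00 to 0.38), with adjusted p = 0.343, 0.506 and 0.147 by limma.

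Mb, the myoglobin gene, was among the most abundant mRNAs of the ventricle. It lies on chromosome 15 from 77015487 to 77050670 on the minus strand. Per kilobase of transcript it ranked 3 or 4 in the day-1 TAC libraries, 6 or 7 in the day-7 TAC libraries and 5 in the sham libraries, of 16427 genes with a length. Its level was 13.42, 13.31 and 13.42 in day-1 TAC, 12.85, 12.92 and 12.93 in day-7 TAC and 13.25, 13.00 and 13.13 in sham. The groups were ordered like those of Ckmt2 and did not overlap, though by narrower gaps. Mb was 1.40-fold higher in day-1 than in day-7 TAC (log2 fold change 0.49, SE 0.12, adjusted p = 0.0251 by limma). Against sham it did not pass the test, at 0.26 with day-1 TAC (SE 0.12, adjusted p = 0.131 by limma) and -0.23 with day-7 TAC (SE 0.12, adjusted p = 0.19 by limma). It was called in day-1 TAC against sham with voom weights (adjusted p = 0.0369) and without an intensity trend (adjusted p = 0.0496 by limma). The call between the TAC groups was lost under quantile normalization (0.28, adjusted p = 0.139) and without day-7 TAC replicate 1 (0.46, adjusted p = 0.0835), day-7 TAC replicate 2 (0.50, adjusted p = 0.0572), day-7 TAC replicate 3 (0.50, adjusted p = 0.0707) or day-1 TAC replicate 3 (0.47, adjusted p = 0.0713 by limma).

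Per kilobase of transcript the order of the 9 genes was led by Mb, then Ckm, Ckmt2 and Ak1, where the place of Ckm before Ckmt2 rests on the length of 1415 bases, as it does for the shares. The mean linear level per kilobase of Mb was 9692 ± 445 in day-1 TAC, 6919 ± 211 in day-7 TAC and 8125 ± 723 in sham (SD, n = 3 each). That of Ckm was 1578 ± 75.2 in day-1 TAC, 1354 ± 181 in day-7 TAC and 1371 ± 60.7 in sham, and that of Ckmt2 was 1045 ± 74.2 in day-1 TAC, 494 ± 19.3 in day-7 TAC and 752 ± 43.2 in sham. Ak1 stood at 269 ± 19.0 in day-1 TAC, 235 ± 7.84 in day-7 TAC and 249 ± 23.4 in sham. Next came Slc6a8, at 48.3 ± 6.64 in day-1 TAC, 49.2 ± 0.896 in day-7 TAC and 37.0 ± 2.82 in sham, and Ckb, at 42.5 ± 8.18 in day-1 TAC, 24.3 ± 2.49 in day-7 TAC and 19.9 ± 3.08 in sham. These neighbours lay within their spread of each other in day-1 TAC and apart in the other groups. Gatm, Gamt and Ak4 were the lowest in every group, at 7.85, 4.43 and 2.41 in day-1 TAC. Gamt and Ak4 lay within their spread of each other in sham, at 2.93 ± 0.372 and 2.85 ± 0.553.

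Muscle other than ventricle was looked for, since Ckm, Ckmt2, Ak1 and Mb are also skeletal muscle genes. Of 9 skeletal muscle markers 8 were in the table and 2 passed the filter. Their summed linear level was 5.19 to 7.72 in day-1 TAC, 8.05 to 8.26 in day-7 TAC and 8.87 to 9.21 in sham. The tested markers went different ways: Tnni2 fell in both TAC groups (-1.22 with day-1 TAC and -1.65 with day-7 TAC), and Tnnt3 rose with day-7 TAC (1.12, adjusted p = 0.0121 by limma). The fast myosin heavy chain genes Myh1, Myh2 and Myh4 had at most 12, 23 and 21 reads in a library. No marker stood at 0, since the lowest value of a library is taken as 1 read. The sum of the 4 atrial markers was 2883 to 4652 in day-1 TAC, 3911 to 6077 in day-7 TAC and 554 to 735 in sham, of which Nppa, which the loaded ventricle also makes, was the only 1 called. Their part in the levels of the muscle genes was not tested.

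Over the 9 libraries, the genes whose log2 values followed Ckmt2 most closely of 10581 candidates were Cacna2d3 (Pearson r = 0.99), a calcium channel subunit gene, Dmpk (r = 0.98), a muscle protein kinase gene, and Lrtm1 (r = 0.98). Lrtm1 is nested within Cacna2d3, so these are not separate loci, and whether they share reads was not tested. Cacna2d3 averaged 4.03 in day-1 TAC, 1.63 in day-7 TAC and 2.93 in sham, and Lrtm1 averaged 8.49 in day-1 TAC, 5.94 in day-7 TAC and 7.30 in sham, so both spread wider than Ckmt2. Dmpk averaged 8.93 in day-1 TAC, 8.19 in day-7 TAC and 8.55 in sham. Those most like Mb were Map9 (r = 0.96), Prdx1 (r = 0.96), a peroxide-reducing enzyme gene, and Pnp (r = 0.96), a purine salvage gene, and those most like Ckm were Smox (r = 0.95), Klf2 (r = 0.94) and Scly (r = 0.92). Among the 9 genes, Ckmt2 and Mb had r = 0.95, and Ckb and Gatm r = 0.91. All these r describe 9 libraries in 3 groups, so they mostly repeat the group means. With the group means taken out, r was 0.45 for Ckmt2 and Mb and 0.71 for Ckb and Gatm.

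**Figure D4:**
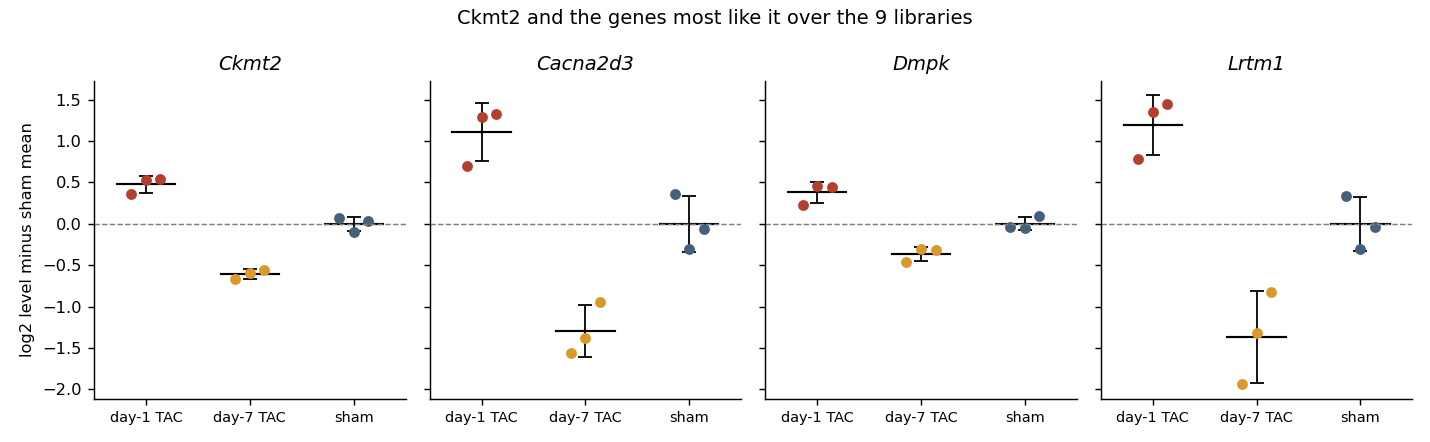
Log2 level of Ckmt2 and of the 3 genes most like it over the 9 libraries, each minus its sham mean (vertical axis, 0 is the sham mean). Points are libraries, lines are means and bars are the SD (n = 3). In every panel the 3 day-1 TAC libraries lie above 0 and the 3 day-7 TAC libraries below it, with the means of Lrtm1 (1.19 in day-1 TAC, -1.36 in day-7 TAC) and Cacna2d3 (1.10 in day-1 TAC, -1.30 in day-7 TAC) farther from sham than those of Ckmt2 (0.47 in day-1 TAC, -0.61 in day-7 TAC).

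The genes around the phosphate shuttle were called in mixed directions. Of all genes tested, 14.3% rose and 20.5% fell with day-1 TAC, 13.8% rose and 15.1% fell with day-7 TAC, and 6.42% were higher and 10.3% lower in day-1 than in day-7 TAC. Among the other creatine and adenylate kinase genes, Ak3, the mitochondrial enzyme that uses GTP, fell against sham in both TAC groups (-0.21 with day-1 TAC, adjusted p = 0.0353, and -0.35 with day-7 TAC, adjusted p = 0.00457 by limma). Of 4 nucleoside diphosphate kinase genes tested, Nme5 fell in both TAC groups (-1.02 with day-1 TAC, adjusted p = 0.00399, and -0.60 with day-7 TAC, adjusted p = 0.0499 by limma). Nme4, a mitochondrial member, rose with day-7 TAC (0.98, adjusted p = 0.0118 by limma). Nme6 and Nme7 passed no test.

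Of the 9 tested genes of AMP deaminase and of AMP-activated protein kinase, the sensor that reads the AMP made by adenylate kinase, 1 rose and 3 fell with day-1 TAC, 3 rose and 2 fell with day-7 TAC, and 3 were lower in day-1 than in day-7 TAC. The gamma subunit genes went different ways. Prkag3 rose in both TAC groups (1.13 with day-1 TAC, adjusted p = 0.00232, and 1.67 with day-7 TAC, adjusted p = 0.000427 by limma). Prkag2 rose with day-7 TAC (0.81, adjusted p = 0.00064 by limma), stood at -0.27 with day-1 TAC (adjusted p = 0.0719) and was lower in day-1 than in day-7 TAC (-1.09, adjusted p = 0.000585 by limma). Prkag1 (-0.43 with day-1 TAC and -0.27 with day-7 TAC) and the beta subunit gene Prkab1 (-0.82 with day-1 TAC and -0.65 with day-7 TAC) fell in both.

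Of the 10 genes that carry adenine nucleotides and phosphate across the mitochondrial membranes, 3 rose and 3 fell with day-1 TAC, 2 rose and 3 fell with day-7 TAC, and none was called between the TAC groups by limma. The outer membrane channel gene Vdac1 fell in both (-0.36 with day-1 TAC and -0.33 with day-7 TAC), as did the phosphate carrier gene Slc25a3 (-0.22 with day-1 TAC and -0.31 with day-7 TAC). The ATP-magnesium/phosphate carrier gene Slc25a23 rose in both (0.51 with day-1 TAC and 0.59 with day-7 TAC), and Slc25a25, of the same kind, rose with day-1 TAC (0.85, adjusted p = 0.00683 by limma). The median of this list was -0.09 with day-1 TAC and -0.01 with day-7 TAC, near that of all genes.

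Of the 8 tested genes that supply methyl groups and arginine to creatine synthesis, 1 rose and 2 fell with day-1 TAC, 1 rose with day-7 TAC, and 2 were lower in day-1 than in day-7 TAC. Slc7a1, an importer of arginine, fell with day-1 TAC (-0.93, adjusted p = 0.00881 by limma) and was lower in day-1 than in day-7 TAC (-0.98, adjusted p = 0.0146 by limma). Ass1, an enzyme that makes arginine's precursor, rose with day-1 TAC (1.54, adjusted p = 0.00843 by limma) from a low level, with group means of 0.79 in day-1 TAC and -0.75 in sham. Mat2a, which makes the methyl donor, rose with day-7 TAC (0.33, adjusted p = 0.0132 by limma), and its regulator gene Mat2b fell with day-1 TAC (-0.23, adjusted p = 0.0157 by limma).

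Heme, which myoglobin needs to bind oxygen, was followed through its genes: of 12 genes of its synthesis and breakdown 1 rose and 1 fell with day-1 TAC (34.8% of all genes were called), 1 fell with day-7 TAC and 1 was higher in day-1 than in day-7 TAC. Urod, a synthesis enzyme, fell in both TAC groups (-0.49 with day-1 TAC and -0.46 with day-7 TAC). Blvra, which acts after heme is broken down, rose with day-1 TAC (0.49, adjusted p = 0.0289 by limma) and was higher than with day-7 TAC (0.56, adjusted p = 0.0297 by limma). Alas1, the first enzyme of the pathway, and Fech, the last, passed no test. Cygb, a globin of fibroblasts and other cells, rose in both (0.38 with day-1 TAC, adjusted p = 0.0222, and 0.33 with day-7 TAC, adjusted p = 0.0471 by limma).

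Of 18 tested genes of transcription factors and coactivators known to act on muscle creatine kinase, myoglobin or Ak4, 1 rose and 7 fell with day-1 TAC (of all genes 14.3% rose and 20.5% fell), 3 rose and 5 fell with day-7 TAC, and 2 were higher and 5 lower in day-1 than in day-7 TAC. Mef2a, a muscle transcription factor gene, fell in both (-0.58 with day-1 TAC, adjusted p = 0.000759, and -0.25 with day-7 TAC, adjusted p = 0.04 by limma), and so did Nfatc2, a calcineurin-responsive factor gene (-0.37 with day-1 TAC and -0.83 with day-7 TAC). Ppargc1a, a coactivator of mitochondrial genes, stood opposite to Ckmt2: 7.44 ± 0.27 in day-1 TAC, 9.24 ± 0.13 in day-7 TAC and 8.46 ± 0.22 in sham (SD, n = 3 each). It fell by 1.02 with day-1 TAC (adjusted p = 0.000748 by limma) and rose by 0.78 with day-7 TAC (adjusted p = 0.00345 by limma). Epas1, a hypoxia-inducible factor gene, fell with day-1 TAC (-0.59, adjusted p = 0.00221 by limma) and stood at -0.18 with day-7 TAC (adjusted p = 0.219 by limma). Hif1a, another such gene of this list, rose in both (0.38 with day-1 TAC, adjusted p = 0.0326, and 0.43 with day-7 TAC, adjusted p = 0.0226 by limma). It was the 1 gene of the list that rose with day-1 TAC.

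Reads of some of these genes could have been counted elsewhere, or the reverse. Antisense genes overlap Ckm (A930016O22Rik, 164 to 314 reads) and Ckmt2 (1700119I11Rik, 22 to 63 reads), whose reads are few beside those of Ckm (35508 to 49131) and Ckmt2 (14212 to 32702). Mb overlaps Apol6, which had 5 to 17 reads. Of the possible 50-base stretches, the share also found in another gene was 24.9% for Mb (with Apol6 and the antisense gene Gm49540), 10.8% for Ckm and 2.51% for Ckmt2 (with their antisense genes), and 9.98% for Ckb and 10.2% for Ak4 (with pseudogenes), so the levels of these 5 genes carry that uncertainty. For Slc6a8, Gatm, Gamt and Ak1 no stretch was shared with another gene.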

How the data were processed

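RNA of the day-14 left ventricle was measured in 9 libraries, 3 per group, by single-end sequencing of 50 cycles. Messenger RNA was taken from 200 ng of total RNA with Dynabeads mRNA DIRECT and made into libraries with ScriptSeq v2, per the labels' protocols. The submitters' processing notes name Trim Galore, STAR, edgeR and the build mm10, without versions. Which annotation was used, whether counting used strand and how reads with several matches were treated is not given in the sources used here. Log2 values were deposited by the authors, scaled by the trimmed mean of M values (TMM) per the file headers, and 100.0% of these were, out of the log, whole multiples of the lowest value of their library within 0.001 reads. That value was taken as 1 read to recover reads per gene, which serve to give depth. If the lowest value stands for an added pseudocount, the recovered reads are 1 too high. The recovered reads were 18538900 to 26529531 per library, and counts under about 100 reads, as for Gamt, carry the widest counting error.

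Of 16710 rows, 12 were left out because 3 symbols stood on 4 rows each. The test took in the 13712 genes with a log2 value above 0 in 3 or more libraries. limma 3.58.1 (R 4.3.3) was fitted with an intensity trend to all 9 libraries, two-sided, with Benjamini-Hochberg adjustment over all genes tested. The scripts were tested on simulated data. Sham columns 2 and 3 have the same name in the header, so these replicate numbers are only names. The replicate numbers of the TAC libraries were not taken as a pairing in the main fit, and the labels do not say whether they pair anything.

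The 9 genes, the 8 gene lists and the 10 marker lists were chosen with earlier results of these data known. Besides the 9 genes, the text names up to 4 genes of each list with the smallest p of limma's F test, and the 3 genes most like Ckm, Mb and Ckmt2. A gene that this rule gave is not reported here. The genes singled out among the markers, and Hif1a, were named after their values were seen. Lengths are those of the longest principal transcript in GENCODE mouse release 21, within the RefSeq gene. The alternatives were 3 other scalings, 2 filters, a pseudocount, 3 other models, a replicate block and leaving out each library.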

Additional observations from a re-analysis of the deposited data

Results flagged for a closer look

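For 5 of the 9 genes the effect of day-1 TAC differed from the effect of day-7 TAC, each taken against the same sham libraries. The difference of the effects equals the log2 fold change between the TAC groups, and limma's adjusted p for it was under 0.05. Of all genes tested, 16.7% were called in that comparison, 6.42% higher and 10.3% lower in day-1 TAC. The values of the 5 genes follow. The difference was 1.08 for Ckmt2, the mitochondrial creatine kinase gene, with effects of 0.47 for day-1 TAC and -0.61 for day-7 TAC. All 3 day-1 TAC libraries were above all 3 day-7 TAC libraries. The difference was 0.80 for Ckb (effects of 1.09 for day-1 TAC and 0.30 for day-7 TAC) and 0.66 for Gatm (effects of 0.62 for day-1 TAC and -0.03 for day-7 TAC), again without overlap between the TAC groups. It was 0.64 for Ak4 (effects of -0.23 for day-1 TAC and -0.87 for day-7 TAC) and 0.49 for Mb (effects of 0.26 for day-1 TAC and -0.23 for day-7 TAC), which are the less stable of the 5, since each lost its call without 4 of the 9 libraries in turn.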

How the results depend on the processing

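Of 12 calls among the 9 genes, 10 held under all of the 19 alternatives that gave a value, and the calls of Ak4 and Mb between the TAC groups did not. With scaling by the library total alone, which moved the median of all genes by 0.10 for day-1 TAC against sham, 7 of the 9 genes were called higher there, with Ckm at 0.30, Gamt at 0.67 and Mb at 0.36. In that fit 4724 of all genes tested were called, in either direction. With a library left out in turn, genes called between the TAC groups numbered 1261 to 2491, genes of the 9 called higher there 3 to 5, and genes called for day-7 TAC against sham 2594 to 4404 (lowest without day-7 TAC replicate 2). With a replicate block on the 6 TAC libraries, 1167 genes and 3 of the 9 were called, and Ak4 (adjusted p = 0.055) and Mb (adjusted p = 0.0692) lost their calls. Same-numbered TAC libraries did not deviate together (r = -0.22, -0.11 and -0.04 over 13712 genes). With 3 libraries a group this cannot exclude a shared litter or day of processing, and the labels name no pairing. In the comparisons with sham no paired analysis was possible, because 2 sham columns share a name. Values that passed no test changed sign in 15 cases: between the TAC groups Slc6a8 under trimmed-mean scaling (0.00299), quantile normalization (0.0336) and the library total alone (0.00749), and from -0.12 to 0.0806 with a library left out; for day-7 TAC against sham Ckm under quantile normalization (0.0424) and the library total alone (0.0333), and from -0.13 to 0.0636 with a library left out; Ak1 under quantile normalization (0.00802); Gatm under the library total alone (0.0247), and from -0.12 to 0.0547; and Gamt under the library total alone (0.0108), and from -0.17 to 0.0614. The causes were not tested. Gamt had no value with a mean of at least 2 as the filter. Gamt and Ak4, on at most 116 and 368 reads, are the least precise of the 9.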

Other observations

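Of 5 Schwann cell markers 4 were tested, and 2 fell with day-1 TAC and 3 with day-7 TAC. Of all genes tested, 20.5% fell with day-1 TAC and 15.1% with day-7 TAC. The summed linear level of the Schwann cell markers was 15.4 to 17.7 in day-1 TAC, 11.9 to 15.4 in day-7 TAC and 24.7 to 26.7 in sham. The red blood cell markers in the table summed to 633 to 862 in day-1 TAC, 356 to 418 in day-7 TAC and 277 to 1012 in sham, and none of the 3 tested was called by limma. Of the brown fat markers in the table, Cidea and Prdm16 were tested and neither was called, and Adipoq had at most 6 reads in a library.

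The antisense gene that overlaps Ckmt2, 1700119I11Rik, had 49 to 56 reads in day-1 TAC, 22 to 31 in day-7 TAC and 33 to 63 in sham. The day-7 TAC libraries held the fewest of these reads, as they did of Ckmt2, while day-1 TAC and sham overlapped, unlike for Ckmt2. These reads are few and not scaled for depth. Some 50-base stretches are shared with Ckmt2, and whether these reads come from Ckmt2 was not tested.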
